A study of Homo sapiens with 6 samples.

Results

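The 10 genes described here encode proteins that bring glucose into the cell and break it down: the transporters SLC2A1 and SLC2A3, the hexokinases HK1 and HK2, the phosphofructokinase subunits PFKL and PFKP, aldolase ALDOA, phosphoglycerate kinase PGK1, pyruvate kinase PKM and lactate dehydrogenase LDHA. They were taken by symbol from the 15794 human genes of the authors' deposited table, and all 10 were found there. The table compares 3 replicates labelled TFDP1 knockout with 3 control replicates labelled NC, wild type and with no knockout gene. Both groups are Cas9-expressing eHAP cells, a haploid human line engineered out of HAP1, which goes back to a chronic myeloid leukaemia. Per the labels, they received a plasmid with guide RNAs and puromycin resistance, were kept in puromycin between 24 and 72 h and were harvested on day 5. What the control plasmid targeted, and whether clones were picked, is not given in the labels. The RNA was polyadenylated RNA of 500000 eHAP cells, to which 10000 S2 cells of Drosophila had been added. The labels call the samples biological replicates. TFDP1 encodes DP1, a subunit that most E2F transcription factors need to bind DNA.

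Glycolysis converts glucose to pyruvate in the cytosol and yields ATP, and lactate dehydrogenase then interconverts pyruvate and lactate. Glucose enters through SLC2A transporters, is trapped by hexokinase and is committed to the pathway by phosphofructokinase. Several steps have paralogous enzymes whose use differs between tissues, and proliferating and transformed cells commonly use much glucose. Many of the genes are textbook targets of the hypoxia-inducible factor HIF1 and of MYC.

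The table gives each gene a log2 fold change, a mean level over the samples in log2 CPM (counts scaled to library size), a likelihood ratio, and a p-value with its adjusted p. It holds no value per replicate, so the depth of the libraries and the spread between replicates are unknown, and each error below is an approximate standard error (SE), the size of the log2 fold change divided by the square root of its likelihood ratio. A gene was called at an adjusted p under 0.05. The targeted gene itself had a log2 fold change of 1.17 in the authors' deposited table, at a mean level of 226 CPM and with an adjusted p of 1.08e-283. Which group is on top is not stated in the table, and editing by Cas9 need not lower a transcript, so signs are read against TFDP1. The group with more TFDP1 transcript is named the TFDP1-high group below and the other one the TFDP1-low group. A negative gene had less transcript in the TFDP1-high group, and a positive gene had more there. Whether the TFDP1-high group is the knockout or the control cannot be told apart from these values.

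Of the 10 genes, 7 were called, 6 of them negative and 1 positive, and 3 were not called. Among all 15794 genes the authors' test called 39.5%, with 22.2% negative and 17.3% positive. Among the 7897 genes with a mean level of at least the median, 23.5 CPM, where 9 of the 10 lie, it called 51.9%, with 26.5% negative. Among the 1129 genes within the narrower range of levels of those 9, it called 60.2%, with 28.1% negative. The glucose transporter SLC2A3 and the hexokinase HK1 had the largest changes, the other hexokinase HK2 was the positive one, and SLC2A1, PKM and LDHA did not pass. The changes were small for all but SLC2A3: the other 9 lay under 0.5 on the log2 scale, or 1.41-fold. The median log2 fold change was -0.13, against -0.03 over all genes. Of all called genes 43.9% were positive, and 62.5% were with fold changes re-centred on the median of 77 ribosomal protein genes. That re-centring leaves 3 of the 10 genes negative and 1 positive, at a share over all genes of 42.8% called and 16.1% negative.

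**Figure D1:**
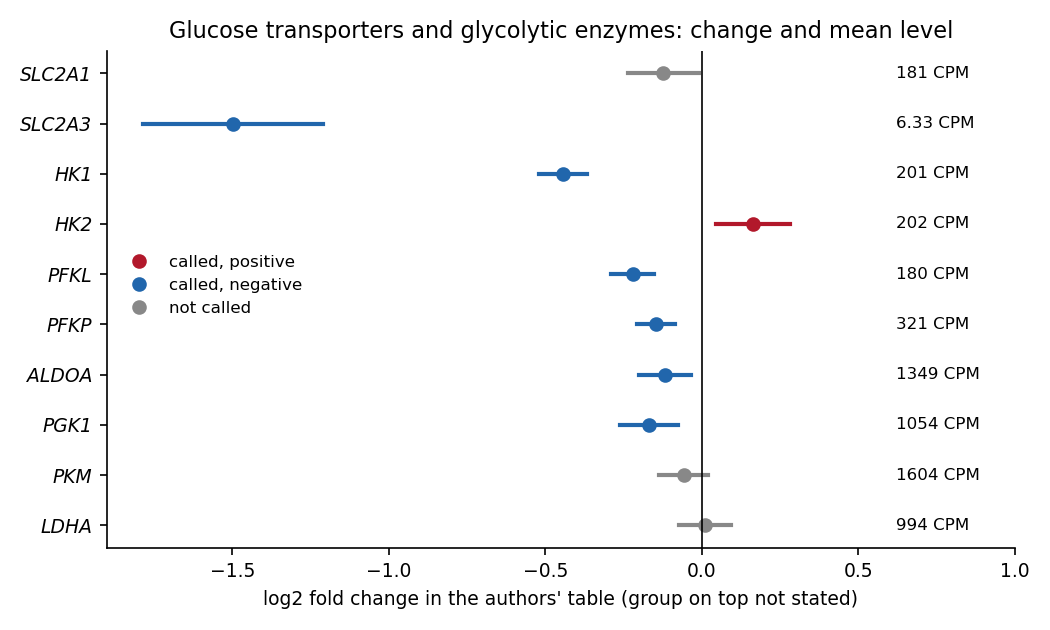
Log2 fold change of each gene in the authors' deposited table (x axis, group on top not stated; points) with 95% intervals from the approximate SE (lines), in pathway order from transport (top) to lactate (bottom), and the mean level in CPM at the right. SLC2A3 lies at -1.50 and HK1 at -0.44, HK2 at 0.16 is the called positive gene, and the intervals of PKM and LDHA cross 0.

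HK2, PGK1 and LDHA are among the textbook HIF1 targets of glycolysis, and the authors' table gives them 3 different outcomes: HK2 positive, PGK1 negative and LDHA not called. Their promoter windows, from RefSeq on GRCh38.p14, are shown for that reason, each from 250 bases before to 50 bases after an annotated start and with the first window used where a gene has several. Capitals mark the core of the hypoxia response element, ACGTG or GCGTG, on either strand, so that CACGT and CACGC are the same cores read on the other strand. The HK2 window is chr2:74833877-74834176, the PGK1 window chrX:78103998-78104297 and the LDHA window chr11:18394313-18394612, all on the plus strand.
HK2: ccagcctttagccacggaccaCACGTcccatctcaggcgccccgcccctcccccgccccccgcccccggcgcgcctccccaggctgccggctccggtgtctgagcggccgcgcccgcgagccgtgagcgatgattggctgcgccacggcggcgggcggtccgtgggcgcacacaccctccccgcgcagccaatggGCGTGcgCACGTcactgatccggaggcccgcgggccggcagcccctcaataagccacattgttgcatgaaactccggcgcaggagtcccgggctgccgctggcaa
PGK1: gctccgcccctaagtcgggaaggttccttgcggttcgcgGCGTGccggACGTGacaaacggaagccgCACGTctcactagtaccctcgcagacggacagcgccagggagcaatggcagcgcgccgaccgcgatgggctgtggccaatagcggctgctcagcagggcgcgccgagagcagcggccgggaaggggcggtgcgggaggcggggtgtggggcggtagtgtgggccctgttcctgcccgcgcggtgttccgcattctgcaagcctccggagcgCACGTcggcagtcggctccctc
LDHA: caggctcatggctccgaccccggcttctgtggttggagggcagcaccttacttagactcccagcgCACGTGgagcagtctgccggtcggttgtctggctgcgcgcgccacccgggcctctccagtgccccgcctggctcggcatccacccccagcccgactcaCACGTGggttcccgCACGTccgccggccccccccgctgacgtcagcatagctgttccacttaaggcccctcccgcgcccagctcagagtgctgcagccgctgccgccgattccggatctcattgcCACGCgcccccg
The windows shown held 3 cores for HK2, 4 for PGK1 and 6 for LDHA, where a core on each strand overlaps in each of the 2 CACGTG runs. The windows not shown held 6 cores for HK2 and 1 for LDHA, so the counts do not rank the genes. In all, 22 windows were listed for 9 of the 10 genes, and SLC2A3 had no entry. At least 1 core lay in 15 of these windows, and every one of the 9 genes had a window with a core. The same letters occur in 48.4% of all 35116 promoter windows of 300 bases. That share is per window, and some of the 9 genes had several windows, so it gives no background for the count of genes. An E2F site, searched as TTTCGCGC, TTTGGCGC or TTTCCCGC on either strand, was in 0 of the 22 windows and in 2.74% of all windows. With so low a share, the 0 does not set these few windows apart from all windows. These are matches of letters, and no binding was measured here.

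SLC2A1 and SLC2A3 encode GLUT1, the basal glucose transporter of many cell types, and GLUT3, a high-affinity transporter best known from neurons. SLC2A3 (chromosome 12, positions 7919230 to 7936275 of GRCh38, minus strand, protein coding, ENSG00000059804.15 in GENCODE 29) had a mean level of 6.33 CPM and a log2 fold change of -1.50 in the authors' deposited table (SE 0.15, adjusted p = 1.26e-22). This is a change of 2.82-fold, and 96.7% of all genes had a smaller one. If the mean level is the plain mean of both groups, it corresponds to 3.31 CPM in the TFDP1-high group and 9.35 CPM in the TFDP1-low group. SLC2A3 and its near-identical neighbour SLC2A14 can share reads, and SLC2A14 is not among the rows analysed here, so the value of SLC2A3 is uncertain to that extent.

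SLC2A1 (chromosome 1, positions 42925375 to 42959176, minus strand, ENSG00000117394.21) was far more abundant, with a mean level of 181 CPM. Its log2 fold change was -0.12 (SE 0.058) and did not pass the authors' test (unadjusted p = 0.0345, adjusted p = 0.0907 in the authors' deposited table), and its approximate 95% interval reached from -0.24 to -0.01. The 2 transporters differed from each other by -1.37 in log2 fold change, SLC2A3 minus SLC2A1, with an interval of -1.68 to -1.06 that treats both genes as independent. Per kilobase of the longest transcript, the level of SLC2A3 was 0.0291 of that of SLC2A1. SLC2A3 made up 1.88% of the reads of the pair in the TFDP1-high group and 4.72% in the TFDP1-low group, on the same assumption of a plain mean.

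Of 16 glucose transporter family genes listed, 10 were in the table, and 4 of these were negative, 1 positive and 5 not called. The median of their log2 fold changes was -0.23. Over all genes, 22.2% were negative and 17.3% positive. Besides SLC2A3, the negative genes in the authors' deposited table were the fructose transporter SLC2A5 (-2.74, at 2.24 CPM), SLC2A6 (-0.64, at 21.1 CPM) and SLC2A11 (-0.56, at 10.3 CPM). The positive gene was the proton-coupled inositol transporter SLC2A13, with a log2 fold change of 0.28 (adjusted p = 0.0351). The larger changes in this family thus lay in genes of low level, since all of the family but SLC2A1 and SLC2A8 were below the median level of the table. SLC2A8 had a log2 fold change of 0.07 and was not called.

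HK1 and HK2 encode hexokinases that phosphorylate glucose and can bind the outer mitochondrial membrane. HK1 is the widespread form and HK2 the form typical of insulin-responsive tissues and many tumours. HK1 (chromosome 10, positions 69269984 to 69401884, plus strand, ENSG00000156515.23) had a mean level of 201 CPM and a log2 fold change of -0.44 in the authors' deposited table (SE 0.040, adjusted p = 4.6e-27), and 76.0% of all genes changed less. HK2 (chromosome 2, positions 74833981 to 74893359, plus strand, ENSG00000159399.9) had almost the same mean level, 202 CPM, and a log2 fold change of 0.16 (SE 0.060, adjusted p = 0.0212 in the authors' deposited table). The call of HK2 is lost at an adjusted p of 0.01. Both hexokinases kept their signs under every scaling tried.

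The hexokinase genes therefore stood on opposite sides, and their difference in log2 fold change, HK1 minus HK2, was -0.61 (SE 0.072, interval -0.75 to -0.47, both genes treated as independent). The implied level of HK1 was 171 CPM in the TFDP1-high group and 232 CPM in the TFDP1-low group. For HK2 the implied levels were 214 CPM in the TFDP1-high group and 191 CPM in the TFDP1-low group. HK1 thus took 44.4% of the reads of the pair in the TFDP1-high group and 54.9% in the TFDP1-low group, where the sums of both genes were 384 and 423 CPM in the same order. Which hexokinase was the more abundant per length depends on the length used: the ratio of HK1 to HK2 was 1.44 per kilobase of the longest transcript and 0.959 per kilobase of all exons. The hexokinase-related gene HKDC1 was scarce at 0.246 CPM and was not called.

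**Figure D2:**
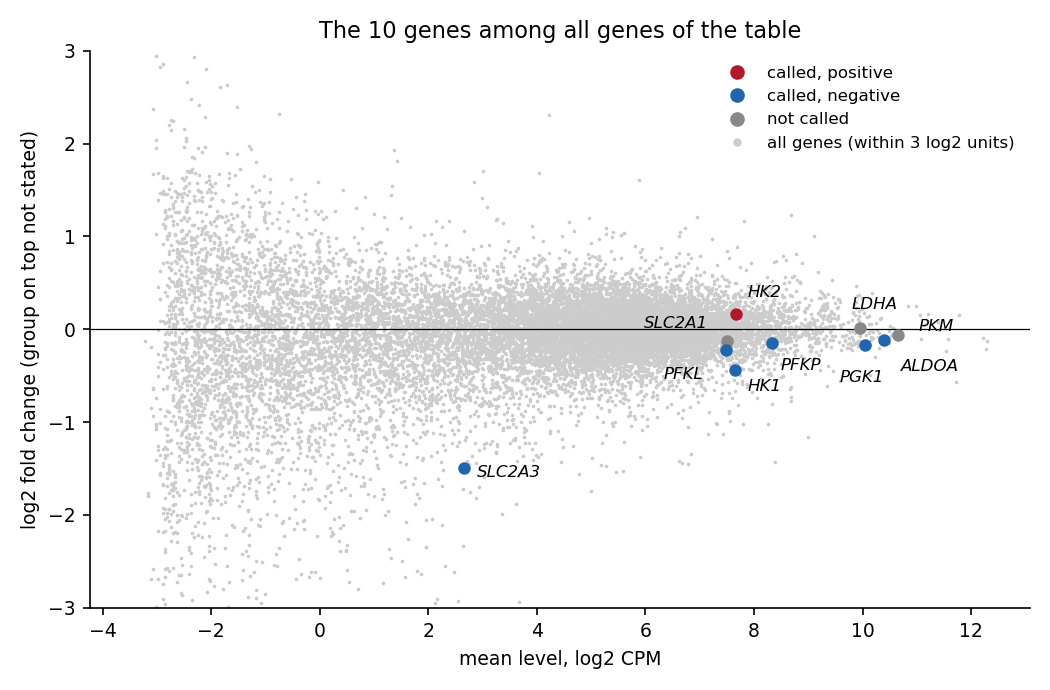
Log2 fold change against mean level in log2 CPM for all genes of the authors' deposited table within 3 log2 units (grey) and for the 10 genes (coloured by call). SLC2A3, at 6.33 CPM, stands apart below the other 9, which lie between 180 and 1604 CPM near a fold change of 0.

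Phosphofructokinase makes the committed step of glycolysis as a tetramer of the liver-type, platelet-type and muscle-type subunits PFKL, PFKP and PFKM. PFKL (chromosome 21, positions 44300051 to 44327376, plus strand, ENSG00000141959.16) had a mean level of 180 CPM and a log2 fold change of -0.22 (SE 0.036, adjusted p = 7.44e-09 in the authors' deposited table). PFKP (chromosome 10, positions 3066333 to 3137712, plus strand, ENSG00000067057.16) had 321 CPM and a log2 fold change of -0.14 (SE 0.031, adjusted p = 2.32e-05 in the same table). PFKM, which is outside the 10 genes, was also negative, at -0.17 and 108 CPM. All measured phosphofructokinase subunits thus carried the same sign. The difference between PFKL and PFKP, -0.08 with an interval of -0.17 to 0.02, was within its error. The call of PFKP was lost when fold changes were re-centred on the ribosomal protein genes (log2 fold change -0.06, adjusted p = 0.0939) and when trends on transcript length and GC content were removed (-0.05, adjusted p = 0.187). PFKL stayed called under both, with -0.14 and -0.10.

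ALDOA splits the phosphorylated sugar into trioses, and PGK1 makes ATP from a triose further down the pathway. PGK1 (chromosome X, positions 77910739 to 78129296, plus strand, ENSG00000102144.14) had a mean level of 1054 CPM and a log2 fold change of -0.17 (SE 0.047, adjusted p = 0.00167 in the authors' deposited table). The RefSeq promoter window shown above for PGK1 lies inside these GENCODE positions and not at their start. ALDOA (chromosome 16, positions 30064164 to 30070457, plus strand, ENSG00000149925.18) had 1349 CPM and a log2 fold change of -0.12 (SE 0.042, adjusted p = 0.0181 in that table). These abundant genes had small relative changes, of 1.12-fold and 1.08-fold, but among the 10 genes the largest implied differences in reads, 123 CPM for PGK1 and 109 CPM for ALDOA. Re-centred on the ribosomal protein genes, neither passed (adjusted p = 0.132 for PGK1 and 0.543 for ALDOA). ALDOA was also lost when re-centred on the median gene (adjusted p = 0.0658), with length and GC trends removed (0.247) and at a threshold of 0.01. Of the exonic bases of ALDOA, 42.3% overlap a read-through gene, AC093512.2, on the same strand in GENCODE 29. That gene is not among the rows analysed here, and whether the authors' counting included it is unknown. A split of reads between them thus cannot be judged.

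PKM makes pyruvate and ATP at the end of the pathway, and LDHA turns pyruvate to lactate. PKM (chromosome 15, positions 72199029 to 72231822, minus strand, ENSG00000067225.17) was the member with the most reads, at 1604 CPM, and had a log2 fold change of -0.06 (SE 0.040, adjusted p = 0.288 in the authors' deposited table). LDHA (chromosome 11, positions 18394388 to 18408425, plus strand, ENSG00000134333.13) had 994 CPM and a log2 fold change of 0.01 (SE 0.042, adjusted p = 0.874 in the same table). Their approximate 95% intervals were -0.14 to 0.02 for PKM and -0.07 to 0.09 for LDHA, which bounds the change at either gene to about 0.14 on the log2 scale as deposited. The signs of both depend on the scaling and are not read further. The table counts PKM as 1 gene, so its PKM1 and PKM2 splice forms were not told apart.

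Per kilobase of the longest transcript, the levels ran from 1.43 CPM for SLC2A3 to 532 CPM for ALDOA, with PKM, LDHA, PGK1 and PFKP next in that order and HK1, SLC2A1, HK2 and PFKL between 29.9 and 50.3 CPM. The order within these groups depends on the length used: per kilobase of all exons, PGK1 (191 CPM) stood above PKM (187 CPM) and LDHA (160 CPM), and SLC2A1 (38.3 CPM) and HK2 (33.3 CPM) stood above HK1 (32.0 CPM). The 10 genes held 0.616% of all CPM in the table. Summed over the 10, the implied levels were 5888 CPM in the TFDP1-high group and 6296 CPM in the TFDP1-low group, a log2 ratio of -0.10.

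Of 31 glycolytic enzyme genes listed, 24 were in the table, and 12 of these were negative, 1 positive and 11 not called. Their log2 fold changes had a median of -0.16. Over all genes the authors' test called 39.5%, with 22.2% negative and 17.3% positive. At or above the median level of the table it called 51.9% of genes, with 26.5% negative. The 16 that are not among the 10 genes gave 7 negative and 0 positive calls and 9 uncalled genes by the authors' edgeR test, and 0 were positive at an unadjusted p under 0.05. The isomerase GPI had a log2 fold change of -0.19 in the authors' deposited table, the enolase ENO2 one of -0.24, lactate dehydrogenase LDHB -0.20 and the mutase PGAM1 -0.18. PGAM1 and its near-identical copy PGAM4 can share reads. ALDOC (-0.46, at 5.25 CPM) and PGAM2 (-1.06, at 1.07 CPM) were negative at low levels. Among the genes that did not pass, GAPDH, at 3029 CPM, had a log2 fold change of -0.10 (adjusted p = 0.0925), ENO1, at 2732 CPM, one of -0.01 (adjusted p = 0.908), and TPI1, at 609 CPM, one of 0.01, all in the authors' deposited table. With re-centring on the ribosomal protein genes, 7 of the 24 were negative and 2 positive. Over all genes, that re-centring gave 42.8% called and 16.1% negative.

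At each of the 11 enzyme steps, the implied levels of the measured paralogues were added up to show the step as a whole. The log2 ratio of these sums ran from -0.19 at phosphoglucose isomerase to 0.01 at triosephosphate isomerase, the positive one. At hexokinase it was -0.14, between the values of HK1 and HK2. At lactate dehydrogenase it was -0.10, since LDHB, which took 55.9% of the reads of that step, was negative and LDHA was not called. The sums have no error of their own.

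**Figure D3:**
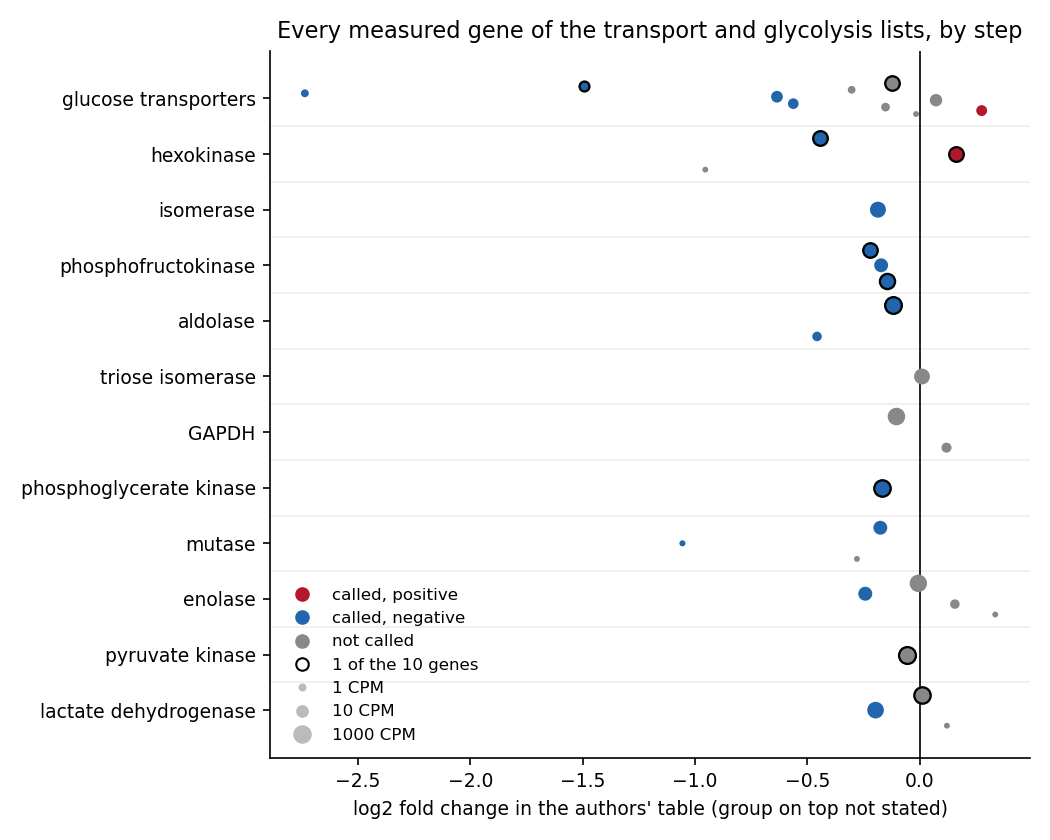
Log2 fold change (x axis, authors' deposited table, group on top not stated) of every measured gene of the transporter and glycolytic enzyme lists, by step from transport (top) to lactate (bottom); colour gives the call, point area grows with the logarithm of the mean CPM, and black rims mark the 10 genes. The genes above 100 CPM lie between -0.44 and 0.16, and the genes beyond -0.5 all have a mean level of at most 21.1 CPM.

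Branches around glycolysis were counted in the same way, beside shares over all genes of 39.5% called, 22.2% negative and 17.3% positive. Of 5 enzymes that make or remove the bisphosphate activator of phosphofructokinase, 1 was called, TIGAR, a phosphatase that removes it, at -0.32. Lactate and pyruvate transport gave 2 negative, 1 positive and 6 uncalled genes of 9, with the lactate exporter SLC16A3 at -0.66 and its chaperone BSG at -0.17 in the authors' deposited table. The pyruvate dehydrogenase list gave 6 negative and 1 positive of 13. Its genes with the smallest p were the subunit PDHB at -0.28 and pyruvate carboxylase PC at -0.34. PC was counted in this list but is a separate enzyme, neither a subunit nor a regulator of the complex. Pentose phosphate genes gave 4 negative and 1 positive of 9, and the positive one was the isomerase RPIA at 0.32. Glycogen genes gave 6 negative and 1 positive of 17, and the synthase GYS1 (-0.55) and the phosphorylase PYGB (-0.45) had the smallest p. Of 3 genes of the gluconeogenesis list in the table, 2 were positive and 1 was negative. The positive ones were the glucose-6-phosphate carrier SLC37A4 (0.55) and PCK2 (0.51), the mitochondrial enzyme that makes phosphoenolpyruvate. All these values are from the authors' deposited table. The negative PC also serves gluconeogenesis but was not counted in that list, so these counts depend on how the lists were drawn. None of the 5 hexosamine pathway genes was called by the authors' edgeR test, and 1 of them, UAP1, had an unadjusted p under 0.05, at 0.042.

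**Figure D4:**
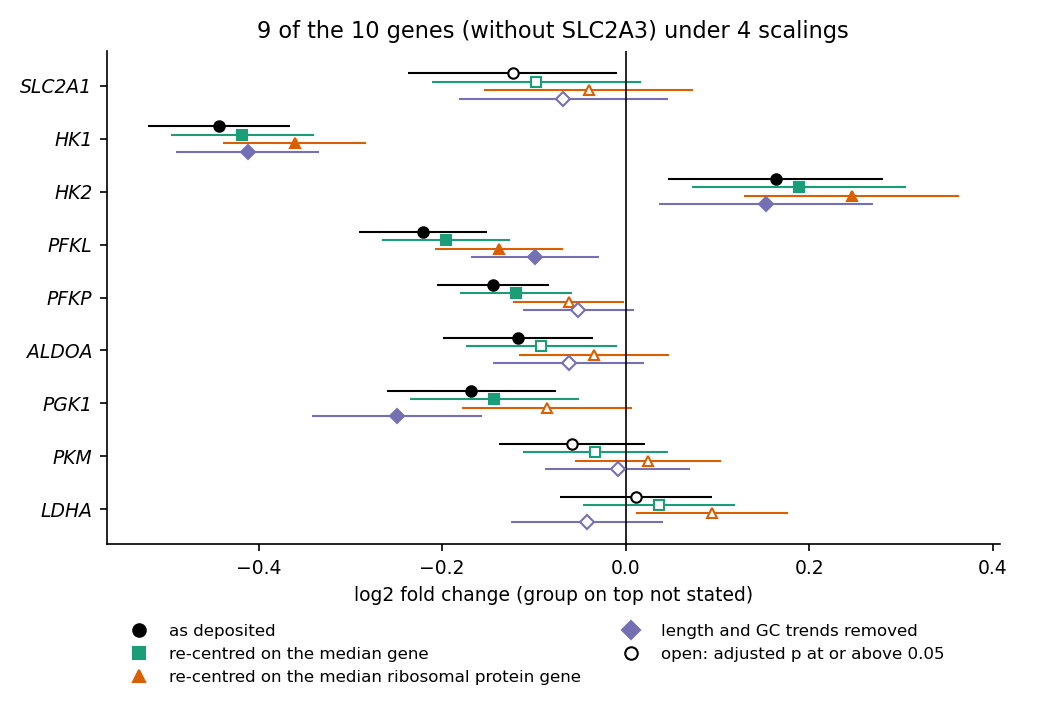
Log2 fold change of 9 of the 10 genes (SLC2A3 left out, since it lies far to the left) as deposited, re-centred on the median of all genes or of the ribosomal protein genes, and with length and GC trends removed; bars are 95% intervals from the approximate SE and open symbols mark an adjusted p at or above 0.05. HK1 stays negative and HK2 positive with filled symbols throughout, whereas PFKP, ALDOA and PGK1 have an open symbol under at least 1 scaling.

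Markers of cell types were counted by the authors' edgeR test, beside shares over all genes of 22.2% negative and 17.3% positive. Of the genes in the table, 5 blood markers gave 2 negative and 1 positive call, and 6 fibroblast markers 5 negative and 0 positive. The 6 epithelial markers gave 3 and 0, and the 6 neuronal markers 2 and 1. No fibroblast or epithelial marker was positive at an unadjusted p under 0.05 (0 of 12). Their summed mean levels were 22.2, 88.0, 56.7 and 186 CPM in that order, and the medians of their log2 fold changes were -0.98, -1.68, -0.76 and -0.12. Fibroblast markers ranged down to -3.47 (SPARC, at 59.0 CPM). Among well-expressed markers the neuronal tubulin TUBB3, at 171 CPM, was at -1.13 in the authors' deposited table. Several markers thus had larger negative changes than the glucose genes other than SLC2A3. The positive calls went the other way: the neuronal marker SYP at 1.71 (8.06 CPM) and the blood marker ITGA2B at 0.49 (5.31 CPM) in the same table. The blood markers PTPRC and GATA1 are not among the rows analysed, and KIT, at 15.3 CPM, was the highest blood marker. By the labels the human cells of all samples were of the eHAP line, so these markers are transcripts read in that line and not in a mixed tissue. Whether their changes are linked to those of the glucose genes was not tested. In such bulk samples, fewer cells in a state and less RNA per cell cannot be told apart.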

How the data were processed

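RNA from 6 samples, 3 TFDP1 knockout and 3 control, was compared by the authors in 1 deposited table. Builds named in the submitters' processing notes are hg38 and dm6, and tools edgeR, featureCounts, HISAT2 and Trimmomatic, with no versions. Per the file headers, the authors' columns are a log2 fold change, a mean log2 CPM, a likelihood ratio (a score per gene, as deposited), a p-value and an FDR. Library scaling, the role of the spike-in, strand and counting settings were not given in the sources used here. Depth per sample is unknown, so the precision of each value is given only by the approximate standard error, and intervals are 95% (1.96 SE). The main call is the authors' edgeR test at an FDR under 0.05; all samples entered as the authors fitted them.

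Computed here were the SE, CPM as a power of the log2 CPM, levels implied for each group, re-centred and trend-removed fold changes (lowess, span 0.3, 3 rounds on length and GC) with a Wald test and Benjamini-Hochberg adjustment, and promoter matches. Symbols matched GENCODE 29 (GRCh38), the source of lengths and positions, for 14777 genes (93.6%), among them all 10. The re-centred Wald test and the trend removal were tested on simulated data, with noise drawn from the approximate SE. That simulation thus did not test the SE itself, and implied levels and promoter matches were not simulated. Tools were Python 3.11.15, pandas 2.3.3, numpy 2.4.6, scipy 1.17.1, statsmodels 0.14.6 and matplotlib 3.10.9. The 10 genes and all lists were chosen with earlier results of these data known. Named genes are the 10, measured genes of the transporter and glycolytic lists, the 2 called genes with the smallest p of each other list, and TFDP1. Left unreported was 1 gene under this rule. UAP1, KIT, SPARC, TUBB3, SYP, ITGA2B, PTPRC, GATA1 and, below, HIF1A, MYC and TXNIP were named after their values were seen.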

Additional observations from a re-analysis of the deposited data

How the results depend on the processing

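The scalings mattered most for small changes of abundant genes. With re-centring on the ribosomal protein genes, 4 of the 10 genes were called instead of 7, with 3 instead of 6 negative (42.8% of all genes called and 16.1% negative), and 7 instead of 12 glycolytic enzymes were negative and 2 instead of 1 positive. At an adjusted p of 0.01 there were 0 positive genes instead of 1 in either list. PKM changed sign with that re-centring (0.024) and LDHA with length and GC trends removed (-0.042), neither called in any setting. The cause was not tested. Adjusting the p-values over the rows of the table changed none of the 10 calls, nor did testing only genes at or above the median level for the 9 genes left. SLC2A3, HK1 and PFKL were called in every setting that includes them. Per kilobase of all exons, the ratios of levels were 0.0268 for SLC2A3 to SLC2A1, 0.959 for HK1 to HK2 and 0.303 for PFKL to PFKP, against 0.0291, 1.44 and 0.258 per kilobase of the longest transcript. No paired analysis was possible because the table holds no values per sample, and leaving out replicates and the fits with DESeq2 or other library scalings were not run for that reason. The approximate SE was larger at low levels such as that of SLC2A3. Its median was 0.15 for genes between 2 and 3 log2 CPM. At the levels of the other 9 genes the median SE was 0.044. Whether depth or the spread between replicates set this was not tested.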

Other observations

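Genes that carry reducing power between the cytosol and mitochondria, which keeps glycolysis supplied with oxidised cofactor, gave 4 negative, 2 positive and 4 uncalled genes of 10. The aspartate aminotransferase gene GOT1 was positive at 0.34 and the malate dehydrogenase gene MDH2 negative at -0.17 in the authors' deposited table. Regulators of glucose use gave 4 negative and 2 positive of 10. For either list, the shares over all genes were 22.2% negative and 17.3% positive. At or above the median level, where most genes of both lists lie, 26.5% of genes were negative. The glucose-sensing transcription factor genes MLXIP (-0.31) and MLX (-0.22) were both negative. HIF1A, whose product acts on the hypoxia response element, was at -0.16 (adjusted p = 0.00165) in the authors' deposited table. The 2 positive regulators by the authors' edgeR test were MYC at 0.14 (adjusted p = 0.0317) and TXNIP at 0.38 (adjusted p = 0.00732).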
